A study of Schizosaccharomyces pombe with 6 samples.

Results

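The comparison described here sets fission yeast cells lacking air1 (air1delta) against cells lacking cid14 (cid14delta), with no wild type in the test. It rests on the 4 arrays titled with those strains, of 6 arrays in all, and on 5481 of the 5483 annotated features of a *Schizosaccharomyces pombe* tiling array, since cid14 and air1 themselves were left out. The strains were air1delta (SPB103) and cid14delta (SPB101), each grown as 2 biological replicates with 1 array per replicate. The wild-type strain SPB76, also with 2 arrays, is shown only for orientation. All 3 strains were grown at 30 °C in the rich medium YES and collected at an optical density of 0.5. Total RNA was extracted with hot phenol and converted to double-stranded labelled target, so transcripts from opposite strands of one locus could not be told apart. Nothing in the labels says whether more than 1 clone of each deletion was used.

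Cid14 and Air1 act in the same nuclear machine. Cid14 is the noncanonical poly(A) polymerase of the TRAMP complex and Air1 its zinc-knuckle RNA-binding subunit, and together with the helicase Mtr4 they add short adenosine tails to faulty or unneeded RNAs and pass them to the exosome, the 3′ to 5′ RNA-degrading complex. In fission yeast Cid14 is known for roles in ribosomal RNA maturation and in the silencing of heterochromatic genes. A direct comparison of the mutants asks where loss of one subunit leaves a different RNA profile from loss of the other.

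Each strain lacked the transcript of its own deleted gene. On the log2 scale cid14 (SPAC12G12.13c) read 8.996 and 8.95 in air1delta, against 3.91 and 3.63 in cid14delta. In turn air1 (SPBP35G2.08c) read 4.42 and 4.90 in air1delta, against 10.46 and 10.64 in cid14delta. The highest value of a deleted gene in its own strain, 4.90, was taken as the level that the arrays give without a transcript, and a difference that reaches below it is given as a lower bound. Array medians lay between 9.27 and 9.29 in the 4 mutant arrays and at 9.21 in both wild-type arrays. The array identifiers in the labels put air1delta in one array series, and cid14delta and wild type in another, so strain and array series cannot be told apart in any result below.

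The 2 mutants differed in 486 of 5481 features (8.87%), of which 300 were higher (5.47% of features) and 186 lower (3.39%) in air1delta than in cid14delta. A feature counted as called at an adjusted p under 0.05 in limma's moderated test on the 4 mutant arrays, with Benjamini-Hochberg adjustment over all 5481 features. Most called differences were small: the median size was 0.49 on the log2 scale, with a range from 0.31 to 1.81, and 18 features were higher and 14 lower by at least 1. Over all features the median size was 0.15, beside a median difference between replicate arrays of 0.09 in air1delta and 0.08 in cid14delta. The arrays of the strains did not overlap for any of the 486 called features, as was also true of 65.2% of all features (36.3% with both air1delta arrays above and 29% with both below). Higher features made up 61.7% of the calls, and 50.1% of 417 calls once a trend of the difference with gene length was removed. When any single mutant array was left out, limma called 0 features, and 1216 to 1465 features had an unadjusted p under 0.05. Those fits have 1 residual degree of freedom, and the lone array is assumed to vary like the other strain. With all 4 arrays 1814 features had an unadjusted p under 0.05.

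**Figure D1:**
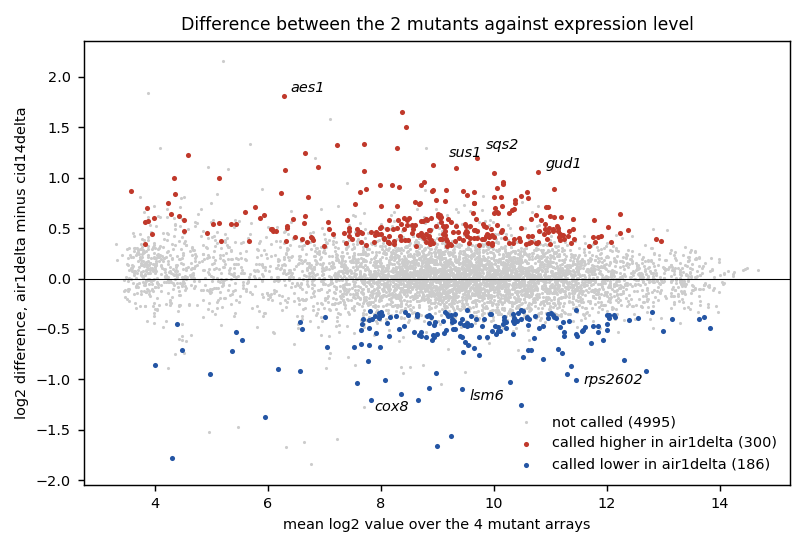
Each point is 1 feature, with the mean log2 value over the 4 mutant arrays on the horizontal axis and the log2 difference, air1delta minus cid14delta, on the vertical axis. The 300 features called higher and the 186 called lower in air1delta are coloured, and the called differences run to 1.81 for aes1.

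The gene with the largest called difference was aes1 (SPBPB21E7.07). Its log2 values were 7.31 and 7.06 in air1delta, against 5.36 and 5.38 in cid14delta, and both air1delta arrays lay well above both cid14delta arrays. The difference was 1.81 ± 0.10 (log2 difference ± SE, n = 2 arrays per strain), or 3.52-fold, with an adjusted p of 0.0192. SPBC1271.07c followed, with 9.15 and 9.27 in air1delta and 7.58 and 7.53 in cid14delta, a difference of 1.66 ± 0.07 (3.15-fold). Both genes had still higher values in wild type, at 7.85 and 8.29 for aes1 and at 9.44 and 9.77 for SPBC1271.07c. SPCC70.08c had 9.26 and 9.13 in air1delta and 7.97 and 7.41 in cid14delta, a difference of 1.502 ± 0.19 (adjusted p = 0.0324). The 2 wild-type arrays of SPCC70.08c stood apart, at 9.42 and 10.46, and its adjusted p was 0.0585 when the spread was taken from all 6 arrays.

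Several of the other genes with large positive differences have known products. The guanine deaminase gene gud1 (SPCC1672.03c), whose product turns guanine into xanthine, had 11.31 and 11.31 in air1delta against 10.20 and 10.30 in cid14delta, a difference of 1.06 ± 0.07 (2.08-fold, adjusted p = 0.0192). The cytidine deaminase gene cdd1 (SPAC1556.04c), a gene of pyrimidine salvage, had 8.31 and 8.16 in air1delta against 7.05 and 7.29 in cid14delta, a difference of 1.06 ± 0.11. For cdd1 the adjusted p of 0.0258 became 0.0506 with the spread of all 6 arrays. The transcript of sus1 (SPBC6B1.12c), a small protein shared by the SAGA deubiquitylation module and the TREX-2 mRNA export complex, had 9.79 and 9.96 in air1delta against 8.74 and 8.82 in cid14delta. Its difference was 1.10 ± 0.08 (2.14-fold, adjusted p = 0.0197), and the wild-type values of 8.95 and 8.70 lay with those of cid14delta.

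The zinc-finger transcription factor gene rsv1 (SPBP4H10.09), known for its role in cells short of glucose, had 6.73 and 6.97 in air1delta and 5.83 and 5.71 in cid14delta (1.08 ± 0.10). The ESCRT-III subunit gene did4 (SPAC4F8.01), which acts in endosomal sorting, had 9.26 and 9.70 in air1delta and 8.35 and 8.36 in cid14delta (1.13 ± 0.16). The transcript of yar1 (SPBP16F5.05c), named after a budding yeast chaperone of a small-subunit ribosomal protein, had 9.11 and 8.73 in air1delta and 7.63 and 7.64 in cid14delta. The arrays of yar1 did not overlap, and its difference of 1.29 ± 0.14 had an adjusted p of 0.0258, or 0.0524 with the spread of all 6 arrays. For sqs2 (SPCC1442.13c) both mutants lay above wild type. It had 10.37 and 10.21 in air1delta, 9.15 and 9.04 in cid14delta and 7.95 and 8.07 in wild type, and the difference between the mutants was 1.19 ± 0.09 (adjusted p = 0.0192). The remaining large positive differences were those of the noncoding RNA SPNCRNA.410 (1.25), of hhy1 (SPAC1F8.04c, 1.10) and of SPAC9E9.17c, whose cid14delta values lay at the level without a transcript, so that it was at least 1.23-fold higher in air1delta. The next features by fitted difference were SPCC777.17c (1.04), mfm2, at least 1.67-fold higher in air1delta, and SPNCRNA.448, which was at the level without a transcript in both mutants and has no fold.

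Some of the largest positive differences belonged to neighbours. The genes aes1, SPBPB21E7.08 and SPBPB10D8.02c lie in a run of 6 consecutive genes, in places 27 to 32 from the left end of chromosome II, and all 6 were called higher in air1delta. The pseudogene SPBPB21E7.08 had 7.98 and 7.77 in air1delta against 6.55 and 6.55 in cid14delta, a difference of 1.33 ± 0.09 (adjusted p = 0.0192). SPBPB10D8.02c had 8.37 and 8.36 in air1delta against 6.97 and 7.09 in cid14delta, a difference of 1.34 ± 0.07. Between and beside them, SPBPB21E7.09 differed by 0.56, SPBPB10D8.01 by 0.60 and SPBPB10D8.03 by a fitted 0.54. The cid14delta values of SPBPB10D8.03, 4.70 and 4.796, were at the level without a transcript, so that it was at least 1.31-fold higher. With the spread of all 6 arrays the adjusted p was 0.11 for SPBPB10D8.02c and 0.068 for SPBPB10D8.01, and after quantile normalization it was 0.0848 for SPBPB10D8.03. The adjoining genes on the telomeric side, SPBPB21E7.06 and SPBPB21E7.05, were at the level without a transcript in both mutants and did not pass the test. This run was picked out after its values were seen.

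**Figure D2:**
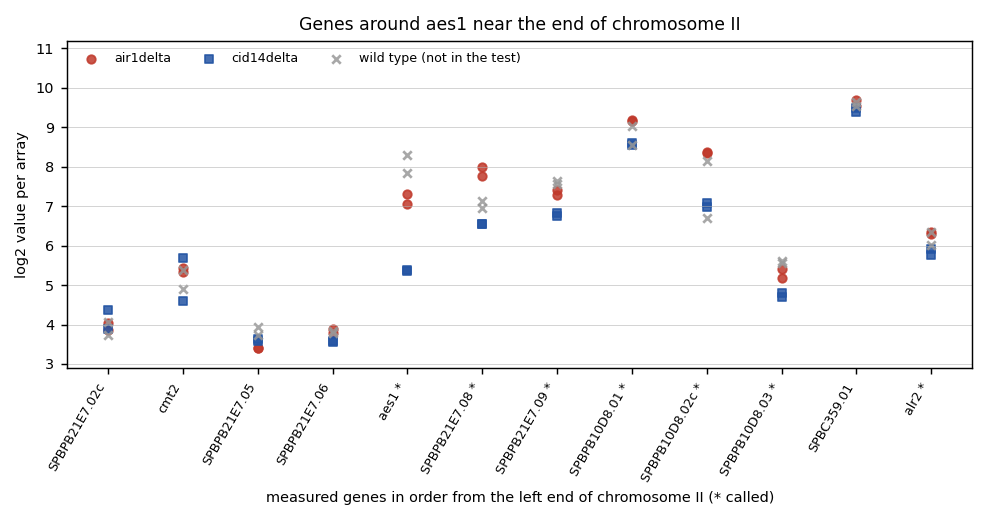
Log2 values of each array are plotted for the measured genes in their order from the left end of chromosome II, with called genes starred. From aes1 to SPBPB10D8.03 both air1delta arrays lie above both cid14delta arrays, for example at 7.31 and 7.06 against 5.36 and 5.38 for aes1.

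Genes near chromosome ends, a domain where heterochromatin and its regulators hold down transcription, differed in both directions. Of 120 measured genes among the 40 nearest each end of chromosomes I and II, 20 were higher and 5 lower in air1delta (20.8%, beside 8.87% of all features), with a median difference of 0.12 beside 0.02 over all features. The telomere-linked helicase gene tlh1 (SPAC212.11) had 6.82 and 6.48 in air1delta against 5.89 and 5.71 in cid14delta (0.85 ± 0.14). The galactose genes gal7 (SPBPB2B2.10c, 0.54) and gal1 (SPBPB2B2.13, 0.38) and pan5 (SPBPB2B2.09c, 0.56), close together at the other end of chromosome II, were higher as well. By limma the adjusted p of gal7 was 0.0594 with the spread of all 6 arrays, and that of gal1 was 0.0582 after quantile normalization. Genes of this group also went the other way: SPAC212.04c had 5.12 and 5.41 in air1delta against 6.73 and 6.53 in cid14delta, a difference of -1.37 ± 0.13 (adjusted p = 0.0258). With the spread of all 6 arrays the counts near chromosome ends were 12 higher and 3 lower. The mean of 28 of these genes lay at the level without a transcript, and several have near-identical copies at other ends whose signals the probes may share.

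Among genes called lower in air1delta, SPAC4H3.08 and SPAC22A12.17c had the largest differences with both mutants above the level without a transcript. SPAC4H3.08 had 8.001 and 8.30 in air1delta against 9.74 and 9.89 in cid14delta, a difference of -1.66 ± 0.12 (3.16-fold lower, adjusted p = 0.0192). SPAC22A12.17c had 8.22 and 8.70 in air1delta against 10.06 and 9.98 in cid14delta, a difference of -1.56 ± 0.17 (2.95-fold lower, adjusted p = 0.0282). For both genes the wild-type arrays, at 8.06 and 8.19 and at 7.95 and 8.07, lay with air1delta and far below cid14delta. SPBC1348.05 had a larger fitted difference of -1.78, but its air1delta values of 3.57 and 3.25 were under the level without a transcript, so that it was at least 1.22-fold lower. Its adjusted p of 0.0258 became 0.0608 with the spread of all 6 arrays.

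Other genes were low in air1delta while cid14delta resembled wild type. SPBC21B10.02 had 7.19 and 7.23 in air1delta, 8.44 and 8.40 in cid14delta and 8.203 and 8.48 in wild type, and the mutants differed by -1.21 ± 0.06 (adjusted p = 0.0192). SPCC1795.12c had 8.24 and 8.37 in air1delta, 9.39 and 9.40 in cid14delta and 9.35 and 9.35 in wild type (-1.09 ± 0.07). SPAC29B12.11c had 7.59 and 7.55 in air1delta, 8.62 and 8.53 in cid14delta and 8.69 and 8.71 in wild type (-1.003 ± 0.07). The histone chaperone gene chz1 (SPAC4G9.06c), whose product carries the H2A.Z histone variant, showed the same order just outside the 15 largest. It had 8.50 and 8.50 in air1delta, 9.39 and 9.49 in cid14delta and 9.51 and 9.49 in wild type, a difference of -0.94 ± 0.07 between the mutants (adjusted p = 0.0192).

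The rhomboid proteases, which cut within membranes, were measured by 4 genes, of which 0 were higher and 2 lower in air1delta. The log2 values of rbd4 (SPAC19B12.06c) were 9.92 and 9.62 in air1delta and 10.90 and 10.69 in cid14delta, a difference of -1.03 ± 0.13 (adjusted p = 0.0324). Those of rbd2 (SPCC790.03) were 7.19 and 7.55 in air1delta and 8.19 and 8.18 in cid14delta, a difference of -0.82 ± 0.13. The other 2 rhomboid genes measured, rbd1 (0.29, adjusted p = 0.0549) and rbd3 (0.24, adjusted p = 0.141), had positive differences that did not pass the test. The remaining large negative differences were those of SPAC806.11 (-1.25), the noncoding RNA SPNCRNA.88 (-1.15), SPCC61.04c (-1.03) and prl38 (SPNCRNA.38), which was at least 1.46-fold lower because its air1delta values fell under the level without a transcript. The next genes in this order were adf1 (SPAC20G4.06c, -0.94), the gene of the actin-severing protein cofilin, and chz1.

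**Figure D3:**
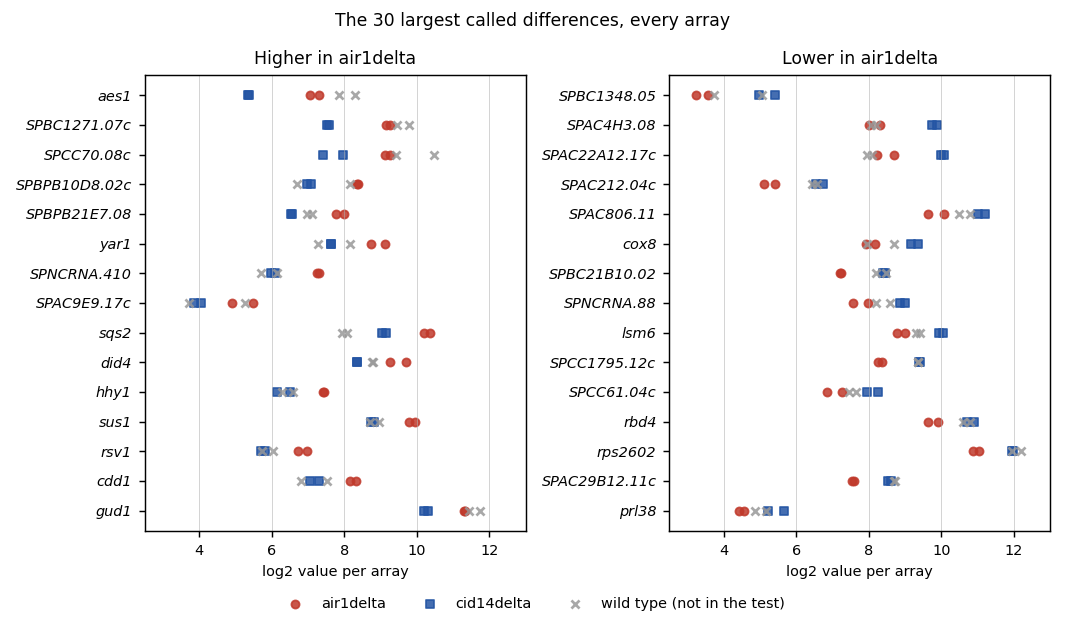
The log2 value of every array is shown for the 15 largest called differences in each direction, with air1delta as circles, cid14delta as squares and wild type as crosses. The air1delta and cid14delta arrays of all 30 features are separate by the rule that picked them. Wild type sits near air1delta for some (SPAC4H3.08 at 8.06 and 8.19) and near cid14delta for others (SPCC1795.12c at 9.35 and 9.35).

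Genes of cytosolic ribosomal proteins that passed the test were lower in air1delta. Of 136 measured, 0 were higher and 11 lower in air1delta (8.09% called, beside 8.87% of all features), and the median difference was -0.10. Small-subunit genes held 7 of 55 and large-subunit genes 4 of 81 of the calls. The lowest was rps2602 (SPAC1805.11c), a gene of the small-subunit protein S26, with 11.02 and 10.88 in air1delta against 11.97 and 11.94 in cid14delta, a difference of -1.01 ± 0.08 (2.01-fold lower, adjusted p = 0.0192). Its paralog rps2601 had 13.58 and 13.59 in air1delta against 13.72 and 13.66 in cid14delta, a difference of -0.11 ± 0.06 (adjusted p = 0.295).

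Fission yeast carries most ribosomal protein genes as pairs or triplets that code for nearly the same protein, and the paralogs of the called genes are given beside them. The S25 gene rps2502 had 11.01 and 10.86 in air1delta against 11.82 and 11.79 in cid14delta (-0.87 ± 0.08), while rps2501 differed by -0.15 ± 0.06 (adjusted p = 0.182). The L20 gene rpl2002 differed by -0.53 ± 0.06 and rpl2001 by -0.04 ± 0.09 (adjusted p = 0.811). The L34 gene rpl3401 differed by -0.49 ± 0.06 and rpl3402 by -0.11 ± 0.06 (adjusted p = 0.255). Both S30 genes were called, rps3002 at -0.70 and rps3001 at -0.41, and the L32 genes rpl3201 (-0.39) and rpl3202 (-0.40, adjusted p = 0.0776) had like values although only the first passed the test. For S9, rps901 differed by -0.40 and rps902 by -0.29 (adjusted p = 0.16), and for S4, rps402 (-0.33) and rps403 (-0.38) were called and rps401 (-0.09, adjusted p = 0.39) was not. The single-copy rpl29 had 10.81 and 10.87 in air1delta against 11.64 and 11.52 in cid14delta (-0.74 ± 0.07). The difference between paralogs was not itself tested, and probes in coding sequence shared by a pair may read both transcripts.

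**Figure D4:**
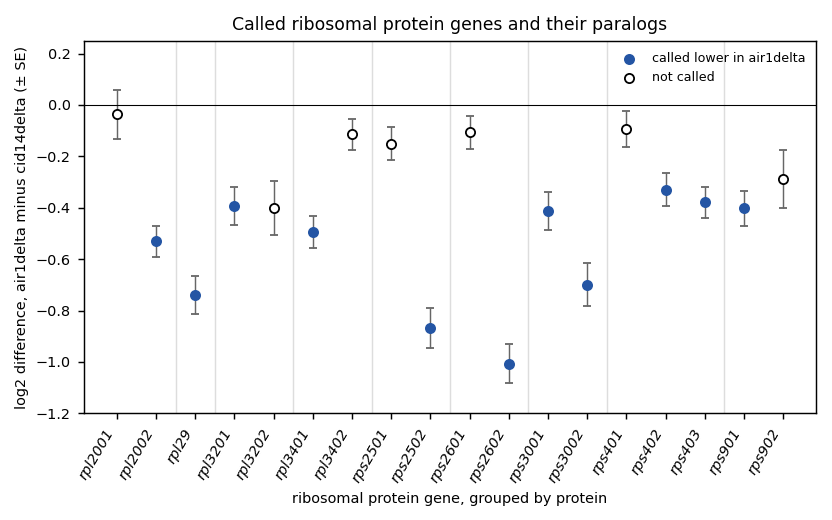
The log2 difference, air1delta minus cid14delta, is plotted with its standard error for the 11 called ribosomal protein genes (filled) and their uncalled paralogs (open). The called rps2602 and rps2502 lie at -1.01 and -0.87, and their paralogs rps2601 and rps2501 at -0.11 and -0.15.

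Nuclear genes of the respiratory chain and ATP synthase numbered 52, of which 0 were higher and 6 lower in air1delta. This was 11.5%, beside 8.87% of all features, with a median difference of -0.09. With the spread of all 6 arrays the counts were 1 higher and 8 lower. The cytochrome c oxidase subunit gene cox8 (SPAC24C9.16c) had 8.16 and 7.93 in air1delta against 9.35 and 9.15 in cid14delta, a difference of -1.21 ± 0.12 (2.31-fold lower, adjusted p = 0.0258). The wild-type arrays of cox8 spanned 8.69 and 7.95. The ATP synthase genes atp14 (SPBC29A3.10c, -0.81) and atp17 (SPBC1604.11, -0.36), the succinate dehydrogenase gene sdh3 (SPCC330.12c, -0.64), the complex III core gene cor1 (SPAC2C4.05, -0.59) and cox24 (SPAC1782.04, -0.42) made up the rest. The list took cox24 by its name, and it is known for a role in mitochondrial translation and not as an oxidase subunit. Of 50 mitochondrial ribosomal protein genes 1 was higher, mrpl28 (0.74), and 2 were lower, mrpl19 (-0.59) and mrp2 (-0.37).

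Of 28 genes of RNA tailing and the exosome, the machinery in which Cid14 and Air1 work, 2 were higher and 1 lower in air1delta. This was 10.7%, beside 8.87% of all features. The exosome cap subunit gene csl4 (SPCC1840.11) had 10.57 and 10.42 in air1delta, 9.79 and 9.76 in cid14delta and 9.71 and 9.64 in wild type, and the mutants differed by 0.72 ± 0.08 (1.65-fold, adjusted p = 0.0258). The exosome ring subunit gene rrp41 (SPAC3G9.10c) had 9.35 and 9.35 in air1delta against 8.77 and 8.82 in cid14delta (0.56 ± 0.06), and its adjusted p of 0.0282 became 0.0504 with the spread of all 6 arrays. The gene of the terminal uridylyltransferase Cid1 (SPAC19D5.03) had 7.37 and 7.43 in air1delta against 7.87 and 7.95 in cid14delta (-0.51 ± 0.07). The TRAMP helicase gene mtr4 had 11.60 and 11.62 in air1delta against 11.65 and 11.71 in cid14delta, a difference of -0.06 ± 0.06 (adjusted p = 0.512).

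Among 26 genes of heterochromatin and RNA interference, 2 were higher and 1 lower (11.5%, beside 8.87% of all features). With the length trend removed 0 were lower. The gene stc1 (SPBP8B7.28c), whose product links the RNA interference machinery to the histone H3 lysine methyltransferase complex, had 9.15 and 9.199 in air1delta, 8.29 and 8.21 in cid14delta and 8.24 and 8.01 in wild type. The mutants differed by 0.92 ± 0.07 at stc1 (1.90-fold, adjusted p = 0.0192). The Argonaute-binding protein gene arb1 (SPAC140.03) was higher by 0.45 ± 0.07, and the gene of the anti-silencing factor Epe1 (SPCC622.16c) was lower, with 9.10 and 9.01 in air1delta against 9.41 and 9.42 in cid14delta (-0.37 ± 0.07).

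Of 74 measured spliceosome genes 8 were higher and 2 lower (13.5%, beside 8.87% of all features). The higher count was 5 with the spread of all 6 arrays and 5 with the length trend removed. Higher genes included usp103 (SPBP35G2.09, 0.86), sap18 (SPCC126.13c, 0.81) and cwf12 (SPBC32F12.05c, 0.75), which code for a U1 snRNP protein, a splicing-associated protein and a member of the Cdc5 splicing complex. The gene usp103 is the immediate neighbour of air1, and its values were 8.01 and 8.13 in air1delta, 7.22 and 7.19 in cid14delta and 7.02 and 6.89 in wild type. The gene on the other side of air1, ilv1, differed by 0.20 ± 0.09 (adjusted p = 0.176), and of the 12 genes within 3 places of either deleted gene usp103 alone was called. A part of the deletion in the usp103 difference was not tested. In the other direction, lsm6 (SPAC2F3.17c), a gene of the Lsm ring that binds U6 RNA and also acts in mRNA decay, had 8.79 and 8.99 in air1delta against 9.93 and 10.03 in cid14delta (-1.10 ± 0.09, adjusted p = 0.0243). The Sm core gene smd2 was lower as well (-0.56).

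Genes that modify transfer RNA, a class of RNA that TRAMP surveys in budding yeast, numbered 49, of which 5 were higher and 0 lower (10.2%, beside 8.87% of all features), with a median difference of 0.10. With the length trend removed 3 were higher. The wobble uridine methyltransferase gene trm9 (SPAC13D6.03c) had 9.37 and 9.36 in air1delta against 8.61 and 8.56 in cid14delta (0.77 ± 0.06, adjusted p = 0.0226). The others were the methyltransferase genes trm10 (0.58) and trm141 (0.34), the Elongator subunit gene elp5 (0.50) and the pseudouridine synthase gene pus1 (0.45). The adjusted p of elp5 was 0.122 and that of trm141 0.0626 with the spread of all 6 arrays.

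Ribosome assembly genes were counted by subunit. By limma 0 of the 42 genes for assembly of the large subunit were called (5 had an unadjusted p under 0.05), 1 was called with the spread of all 6 arrays, and the differences ran from -0.31 to 0.30. Of 45 genes of the small subunit processome and nucleolar particles, 3 were higher and 2 lower (11.1%, beside 8.87% of all features). The helicase gene rok1 (SPAC22F3.08c, 0.34) was among the higher, and the lower were the processome genes utp20 (SPBC56F2.04, -0.40) and utp10 (SPBC23E6.04c, -0.31). The highest of the list, dim1 (SPCC16A11.05c, 0.75), is known as a gene of a small protein of the spliceosomal tri-snRNP and not of ribosome assembly. With the length trend removed the counts were 2 higher and 0 lower.

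Noncoding RNAs as a class held a share of calls close to that of all features. Of 474 measured, 21 were higher and 15 lower (7.59%), with 309 having a mean at the level without a transcript. The direction for the class depended on scaling, since the median difference was 0.07 as deposited and -0.02 after quantile normalization, which gave 12 higher and 19 lower. With the length trend removed 11 were higher and 11 lower. The structured RNAs among them were looked at after their values were seen. The RNase MRP RNA mrp1 (SPNCRNA.82), which cuts ribosomal RNA precursors, had 9.59 and 9.59 in air1delta, 10.15 and 10.19 in cid14delta and 9.37 and 9.61 in wild type. Its difference between the mutants was -0.58 ± 0.06 (1.49-fold lower, adjusted p = 0.0258).

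The RNase P RNA rrk1 (SPNCRNA.128), which trims transfer RNA precursors, had 7.58 and 7.32 in air1delta, 8.19 and 8.03 in cid14delta and 7.14 and 7.41 in wild type (-0.66 ± 0.11, adjusted p = 0.0417). The signal recognition particle RNA srp7 (SPNCRNA.98) had 8.32 and 8.28 in air1delta, 8.67 and 8.66 in cid14delta and 8.29 and 8.36 in wild type (-0.36 ± 0.06, adjusted p = 0.0398). For mrp1, rrk1 and srp7 the cid14delta arrays were above all arrays of both other strains. The telomerase RNA ter1 (SPNCRNA.214) had 10.62 and 10.63 in air1delta against 10.56 and 10.55 in cid14delta, a difference of 0.07 ± 0.06 (adjusted p = 0.45). The small nucleolar RNA snoR61 had a difference of -0.48 ± 0.30 (adjusted p = 0.315), and its arrays overlapped between the mutants.

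Meiotic transcripts, whose removal in growing cells depends on the RNA-binding protein Mmi1 and the exosome, held shares of calls near that of all features. Of 21 Mmi1-dependent mRNAs 2 were higher, mug8 (SPAC32A11.01, 0.41) and spo4 (SPBC21C3.18, 0.41), and 0 lower (9.52%, beside 8.87% of all features). After quantile normalization 0 were higher and 2 lower. Of 110 genes named mug or meu for their induction in meiosis, 9 were higher and 3 lower as deposited (10.9%). After quantile normalization the counts were 4 and 4. The direction of these groups therefore was not settled. Of 10 markers of sporulating cells 9 were measured and 0 called by limma (2 had an unadjusted p under 0.05), and 0 of the 9 were at the level without a transcript in all mutant arrays.

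Markers of mating cells did not move together. Of 7 M-cell genes, mfm2 (SPAC513.03), a gene of the M-factor pheromone precursor, had 5.48 and 5.80 in air1delta against 4.50 and 4.77 in cid14delta, where it was at the level without a transcript, and was at least 1.67-fold higher. Its adjusted p of 0.0365 became 0.0529 after quantile normalization. The M-cell adhesin gene mam3 (SPAP11E10.02c) had 9.10 and 9.09 in air1delta against 9.75 and 9.89 in cid14delta, a difference of -0.73 ± 0.07 (adjusted p = 0.0258). The P-cell genes map2, map3 and map4 had differences of 0.06, 0.13 and -0.24 and were not called (0 had an unadjusted p under 0.05). The mean log2 value of the 7 M-cell markers was 7.08 and 7.24 in air1delta and 7.10 and 7.24 in cid14delta. Their sum on the linear scale was 1416 and 1512 in air1delta against 1763 and 1928 in cid14delta. For the 3 P-cell markers the mean log2 value was 8.199 and 8.199 in air1delta and 8.26 and 8.18 in cid14delta. Their linear sum was 971 and 958 in air1delta against 983 and 930 in cid14delta. Of 7 markers of nitrogen-starved cells the vacuolar protease gene isp6 (SPAC4A8.04) was called, at 11.06 and 11.06 in air1delta against 10.46 and 10.40 in cid14delta (0.63 ± 0.06). The mean log2 value of these 7 was 8.95 and 9.07 in air1delta and 8.94 and 8.94 in cid14delta. Their linear sum was 5271 and 5342 in air1delta against 4590 and 4549 in cid14delta. Of the wider list of 18 genes of nitrogen starvation and mating entry, isp6 was higher and fnx2 (-0.58) lower. In bulk RNA a change in the share of cells of one kind and a change in RNA per cell cannot be told apart.

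The wtf genes, selfish elements that kill spores which do not inherit them, and Tf2 retrotransposons were measured by 27 features, of which 24 had positive differences, with a median of 0.24. Positive differences made up 54.3% of all features. Called higher were wtf6 (SPCC553.05c, 0.93), wtf18 (SPCC285.07c, 0.71), wtf23 (SPCC1620.02, 0.59) and wtf9 (SPCC970.11c, 0.53), and called lower was the retrotransposon Tf2-13 (SPCC1494.11c, -0.52). The values of wtf6 were 8.81 and 8.52 in air1delta against 7.57 and 7.90 in cid14delta. With the spread of all 6 arrays the adjusted p was 0.0532 for wtf6 and 0.0537 for Tf2-13. Members of both families are near-identical, so probes may be shared between features.

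Genes of nutrient supply differed in both directions. Of 20 genes listed for phosphate, thiamine, biotin and vitamin B6 supply, 2 were higher and 3 lower (25%, beside 8.87% of all features). The biotin transporter gene vht1 (SPAC1B3.16c) had 12.60 and 12.50 in air1delta, 11.86 and 11.96 in cid14delta and 13.22 and 13.58 in wild type, and the mutants differed by 0.64 ± 0.08 (adjusted p = 0.0296). The biotin synthase gene bio2 (SPCC1235.02) was higher as well (0.52 ± 0.06). Lower in air1delta were the glycerophosphodiester transporter gene tgp1 (SPBC1271.09), at 10.32 and 10.16 in air1delta against 11.04 and 10.86 in cid14delta (-0.71 ± 0.10), and the acid phosphatase gene pho1 (SPBP4G3.02), at -0.42 ± 0.08. The phosphate transporter gene pho84 (-0.27, adjusted p = 0.0647) and the phosphate genes pho842 (0.08), pho4 (0.08), pho7 (-0.13) and csk1 (-0.13) were not called. The vitamin B6 transporter gene bsu1 (SPAC17A2.01) was also lower (-0.38). The list of 20 also counts car1 (SPBP26C9.02c, 0.14, not called), which is known as an arginase gene.

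Of 19 iron and copper genes 2 were higher and 2 lower (21.1%, beside 8.87% of all features). The higher were str3 (SPAC1F8.03c, 0.96) and the ferric reductase gene frp1 (SPBC1683.09c, 0.58). The lower were the siderophore synthetase gene sib1 (SPAC23G3.02c, -0.50) and shu1 (SPAC1F8.02c), which was at the level without a transcript in both mutants. The wild-type replicates themselves were far apart here, at 8.92 and 11.49 for str3 and at 7.70 and 10.58 for frp1. With that spread in the fit limma called 0 of the 19. Nitrogen assimilation genes numbered 16, of which gud1 and uap2 (SPBC1289.02c, 0.61) were higher and 0 lower (12.5% called). Of these uap2 is known as a gene of a U2 snRNP-associated protein, which leaves gud1 as the call in nitrogen use. Of 39 marker genes of amino acid and purine synthesis 3 were higher, arg3 (0.38), trp3 (0.33) and ade5 (0.36), and 0 lower (7.69%, beside 8.87% of all features). With the length trend removed 0 were called, and the adjusted p of arg3 was 0.0567 with the spread of all 6 arrays.

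Calls among cell cycle and chromatin genes went in both directions. Of 20 genes of the G1 to S transition 3 were higher and 0 lower (15%, beside 8.87% of all features), with a median difference of 0.12. The higher count was 1 with the length trend removed and 5 with the spread of all 6 arrays. The 3 genes were the DNA end resection gene ctp1 (SPCC338.08), with 10.37 and 10.29 in air1delta against 9.78 and 9.81 in cid14delta (0.53 ± 0.07), the replication licensing gene cdc18 (SPBC14C8.07c, 0.41) and spd1 (SPAC29B12.03, 0.39), whose product inhibits ribonucleotide reductase. Of 20 septation genes the glucanase gene agn1 (SPAC14C4.09, 0.54) and the Polo kinase gene plo1 (SPAC23C11.16, 0.36) were higher (10% called). Of 38 kinetochore genes dad4 (0.59) and fta4 (0.49) were higher, and mhf1 (-0.72), dad1 (-0.45) and ask1 (-0.40) lower (13.2% called). With the spread of all 6 arrays the adjusted p was 0.0842 for dad4 and 0.0573 for mhf1. Of 11 histone genes the histone H3 gene hht3 (SPBC1105.11c) was lower (-0.40) and 0 were higher (9.09% called). Of 18 genes of histone chaperones and exchange complexes, swc2 (0.52) and pcf3 (0.35) were higher and chz1 (-0.94) lower (16.7%, beside 8.87% of all features).

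The remaining groups are given with the share called, to set beside 8.87% of all features. Of 23 nuclear pore genes nup184 (-0.32) was lower (4.35%). Of 26 protein folding genes the chaperonin gene cct2 (0.35) was higher (3.85%). Of 33 core stress genes the sulfiredoxin gene srx1 (0.65) was higher and the heat shock gene hsp9 (-0.61) lower (6.06%). Neither srx1 nor hsp9 was called with the spread of all 6 arrays. Of 18 ergosterol genes erg10 (0.39) was higher and erg4 (-0.51) lower (11.1%). Genes of ubiquitin-like modifiers and their enzymes numbered 19 (10.5% called). Among them uba3 (0.50), for an enzyme that activates NEDD8, was higher. The lower gene was ubi1 (-0.58), which codes for ubiquitin fused to a ribosomal protein. With the length trend removed 0 were called higher among the folding, ergosterol, ubiquitin-like and histone chaperone genes, and 0 lower among the nuclear pore genes.

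**Figure D5:**
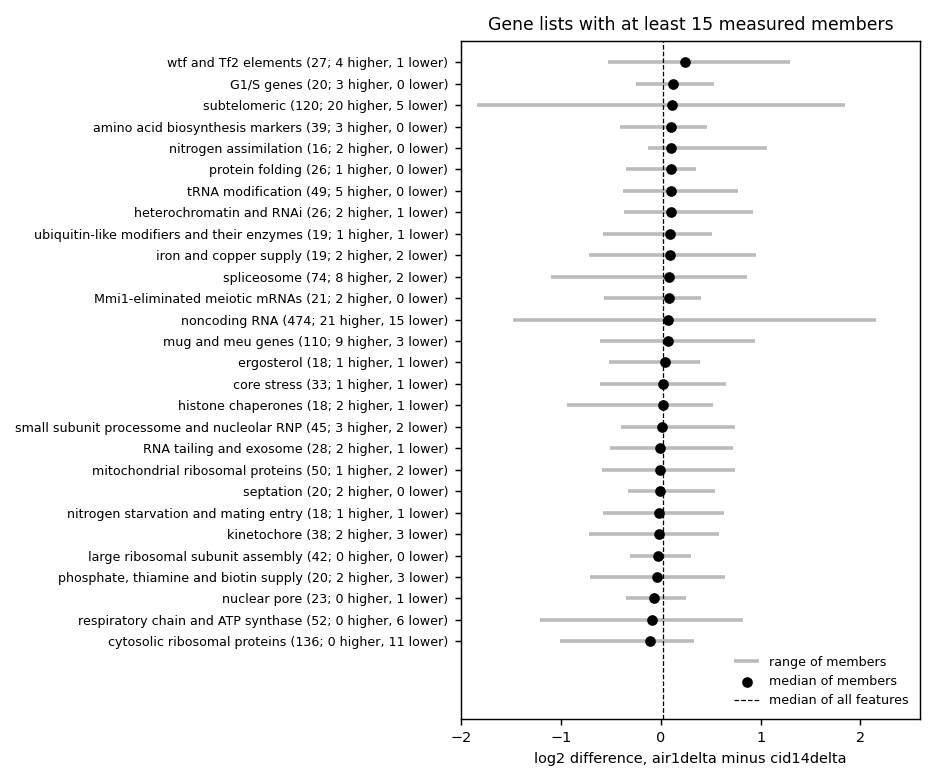
Each row is a gene list with at least 15 measured members, with the range (grey) and median (black) of the log2 difference, air1delta minus cid14delta, and the number called in each direction. Medians run from -0.10 for cytosolic ribosomal proteins to 0.24 for wtf and Tf2 elements, beside 0.02 over all features (dashed).

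Higher calls outnumbered lower calls except among the longest genes. Among the shortest quartile of genes, of 56 to 1137 bp, 91 were higher and 48 lower, and in the next quartile, to 1710 bp, 115 were higher and 46 lower. In the third, to 2493 bp, 69 were higher and 36 lower. Among the longest quartile, of 2495 to 15232 bp, 19 were higher and 49 lower. Between 7.51% and 10.5% were called in each quartile of mean level. Chromosomes I, II and III had 8.46%, 8.96% and 9.51% of their features called. Of 29 pseudogenes 5 were higher and 1 lower (20.7%), and of 126 features without a RefSeq match 6 were higher and 7 lower.

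Of 4861 pairs of adjacent measured genes 41 had both members called, 22 with both higher, 6 with both lower and 13 with opposite directions. An opposite pair was pps1 (-0.42) beside sqs2 (1.19), and a concordant pair was yar1 (1.29) beside nop8 (0.33). Over all adjacent pairs, called or not, 51.8% had differences of the same sign. Whether called genes were neighbours more often than the share called over all features would give was not tested.

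Some of the largest differences did not pass the test because replicates were far apart. The noncoding RNA SPNCRNA.136 had 7.13 and 5.45 in air1delta against 4.66 and 3.60 in cid14delta, where it was at the level without a transcript, so that its air1delta mean was at least 2.62-fold higher (adjusted p = 0.0986). The subtelomeric gene SPBCPT2R1.04c had 6.52 and 5.15 in air1delta against 7.64 and 7.72 in cid14delta, a difference of -1.84 ± 0.45 (adjusted p = 0.0683). The gene fex2 (SPBPB8B6.06c) had 5.68 and 5.29 in air1delta against 7.70 and 6.61 in cid14delta (-1.67 ± 0.38, adjusted p = 0.0614).

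The wild-type mean, used for no test, lay nearer the cid14delta mean for 228 of the 300 higher features and nearer the air1delta mean for 72. For the 186 lower features it lay nearer cid14delta for 125 and nearer air1delta for 61. Over all 5481 features the wild-type mean lay nearer cid14delta for 3286 and nearer air1delta for 2195. Among the 30 largest differences, 11 of the 15 higher and 10 of the 15 lower had the wild-type mean nearer cid14delta, with aes1, SPBC1271.07c, SPCC70.08c and gud1 among the exceptions on the higher side and SPAC4H3.08, SPAC22A12.17c, cox8, lsm6 and SPCC61.04c on the lower. Wild type and cid14delta shared an array series, so closeness in strain and in array series cannot be told apart here.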

How the data were processed

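The authors deposited 1 value per feature and array, and the log2 scale was inferred from the range of these values. The affy package is listed per the submitters' processing notes. How probes were corrected, normalized and summarised, and on which build, was not given in the sources used here. Of 5483 feature IDs, 5357 were matched to a RefSeq gene table (ASM294v3), 20 of them by synonym, for names, length and gene order only. All columns were used, unscaled and unfiltered.

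The 4 mutant arrays entered a linear model (limma 3.58.1, R 4.3.3), with 2 residual and 2.77 prior degrees of freedom. Tests were two-sided, and errors are standard errors of the model. The number of arrays limits the precision. The labels call the samples biological replicates.

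The comparison and its 32 gene lists were chosen with earlier results of these data known, and some list members were taken out after values were seen. Lists are described by counts and medians, without a test, and the share called over all features, 8.87%, is the one to set beside each list. Text names the 15 largest called differences per direction, among features whose arrays did not overlap between the mutants, and up to 4 members per list with the smallest p. Other names followed after values were seen. The fit was checked on simulated data. Alternatives covered the arrays in the fit, scaling, a filter on low values, the replicate block, the prior variance, gene length, thresholds and each array left out.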

Additional observations from a re-analysis of the deposited data

How the results depend on the processing

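The number of called features, 486 in the comparison as reported, stayed within 1.5 times of that value with all 6 arrays in the fit (543, of which 385 were shared), median centring (444), quantile normalization (441), cyclic loess (434), removal of the length trend (417) and low values left out (708, where the lower count was 298 against 186). A prior variance trend gave 852 calls, 477 higher and 375 lower, with 250 among listed genes against 164. The replicate number as a block gave 98 calls, 67 higher and 31 lower, with 49 among listed genes and 26 of the 30 largest differences, the lost ones being SPAC9E9.17c, SPAC806.11, SPCC61.04c and prl38. Between same-numbered arrays of the mutants, the deviations from each strain's own mean had a correlation of 0.0154 over the features. Whether arrays with the same replicate number were handled together was not tested. Without any single mutant array the 4-array fit gave between 0 and 0 calls in every count. The lone array is then assumed to vary like the other strain. With wild type in that fit, an alternative added after the counts were seen, it gave 0 to 1, the 1 call being higher, of a listed gene and not among the 486. An adjusted p under 0.01 gave 0 calls, an unadjusted p under 0.05 gave 1814, and a difference of at least 1 gave 32. All 6 arrays kept 24 of the 30 largest, losing SPCC70.08c, SPBPB10D8.02c, yar1, SPAC9E9.17c, cdd1 and SPBC1348.05. No called feature that the text names by rule changed sign under these alternatives. The causes of the moved counts were not tested.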
